A study of Mus musculus with 6 samples.

Results

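Cholesterol handling of epididymal white fat, a visceral depot of male mice, was examined through 30 genes chosen by name. They were 18 sterol synthesis enzymes, 5 genes of the sterol-regulated factor SREBP2, and 7 of the liver X receptors (LXR), sterol export and storage. The 5 are the gene of SREBP2 itself, its regulators and a target. All 30 were found among the 54532 gene identifiers of the deposited count table, and all 30 passed the filter on low counts. RNA was sequenced from 3 libraries of mice with a myeloid-specific PD-1 knockout (PD-1fl/fl Lyz2-Cre) and 3 libraries of littermate controls (PD-1fl/fl). Every mouse had been on a high-fat diet for 16 weeks and carried the floxed PD-1 allele. Lyz2-Cre deletes in macrophages and other myeloid cells, so it does not target PD-1 in the T cells, adipocytes and stromal cells of the same pad. The labels state neither age nor whether a library stands for 1 animal, and p-values measure the spread between these libraries.

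Animal cells make cholesterol from acetyl-CoA through mevalonate, farnesyl diphosphate, squalene and lanosterol. When sterols are scarce, the escort protein SCAP carries SREBP2 out of the endoplasmic reticulum, and the cleaved factor switches on the synthesis enzymes. When sterols are plentiful, INSIG proteins hold SCAP back, and oxidised sterols activate LXR, which drives export and storage genes. Adipocytes hold a large store of free cholesterol in their lipid droplets but make little of it, while hepatocytes are a main site of synthesis and macrophages esterify or export the cholesterol they take up.

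Library totals were 20108185 to 27225533 counts. Replicate numbers only name libraries, in accession order. For Pdcd1, the deleted gene, 19, 19 and 5 counts were found in the knockout libraries, against 13, 0 and 0 in the control libraries, which does not check the genotype of myeloid cells in whole tissue. Control replicate 2, titled HF_7690_eWAT, had a liver profile. The hepatocyte gene Alb stood there at 148656 CPM (counts scaled to a common library size with TMM factors), against 4.02, 654 and 57.6 CPM in knockouts and 7.38 and 3879 CPM in control replicates 1 and 3, and 12 adipocyte markers summed to 2674 CPM there, against 16186 to 44649 CPM in knockouts and 65480.0 and 28962 CPM in the other controls. All 12 were detected in all 6 libraries. Most of the sum in control replicate 2 was Acsl1, at 1796 CPM. It had 1493, 1065 and 1524 CPM in knockouts and 3254 and 1590.1 CPM in control replicates 1 and 3. The 12 hepatocyte markers had a mean log2(CPM + 1) of 1.15, 5.44 and 2.78 in knockouts and 1.82, 12.67 and 8.28 in controls. Their summed levels of 127 to 2079.9 CPM in knockouts and 8106 to 220551 CPM in controls include Cyp2e1, which alone held 1991 CPM in knockout replicate 3 and 8089 CPM in control replicate 1. Cps1 was at 0 in knockout replicate 1 and Fgb, Fga, Fgg and Cps1 were at 0 in control replicate 1. The 15 macrophage markers, all detected in every library, summed to 5569, 6945 and 1586 CPM in knockouts and 1311, 648 and 1083 CPM in controls. Of these sums Lyz2, the gene named in the Cre line, held 1945, 2334 and 376 CPM in knockouts and 299, 123 and 369 CPM in controls. All 15 had a log2 fold change above 0, against 48.0% of all genes, and 0 passed edgeR's test. In 10 of them every knockout lay above every control, against 9.54% of all genes. The 5 T cell markers summed to 24.3, 19.9 and 21.1 CPM in knockouts and 6.52, 5.37 and 7.19 CPM in controls, with 5 of 5 above 0, 3 of 5 without overlap and 0 past the test. Fold changes are given with all 6 libraries and without control replicate 2. In whole tissue, fewer cells of a type and less RNA per cell cannot be told apart.

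The promoters of the synthesis enzymes are shown first, because these genes are known to answer to one factor and the results turn on whether they moved together. RefSeq upstream sequence (GRCm38.p6) was held for 25 of the 30 genes, among them 15 of the 18 enzymes, and the 250 bases before the RefSeq start furthest upstream were searched on both strands. That start need not be the GENCODE start from which gene coordinates are given here. The CCAAT box, the site of the factor NF-Y that is known to act beside SREBP2, was present in 13 of 15 enzyme promoters (86.7%), against 36.1% of 11548 promoters of tested genes and 34.5% of 27025 promoters in all. It was also found in 3 of 4 promoters of the SREBP2 group (Insig1, Insig2 and Srebf2) and in 3 of 6 of the LXR group (Lpcat3, Mylip and Soat1). The box nearest the start is in capitals in the following lines, for Soat1 and for the enzymes whose stretch lies outside their GENCODE gene. For Idi1, Cyp51, Tm7sf2, Msmo1 and Hsd17b7 it lies inside the gene's coordinates and is not printed. The lines run 5′ to 3′ on the transcript strand. Spelled ATTGG, it lies on the opposite strand, as in 9 of the 13.
Mvk (chr5:114444235-114444268, plus strand): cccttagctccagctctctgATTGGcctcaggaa
Pmvk (chr3:89454385-89454429, plus strand): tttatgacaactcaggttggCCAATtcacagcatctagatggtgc
Mvd (chr8:122443425-122443469, minus strand): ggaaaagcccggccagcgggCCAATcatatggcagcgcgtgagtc
Lss (chr10:76531523-76531567, plus strand): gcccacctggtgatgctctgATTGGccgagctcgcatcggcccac
Nsdhl (chrX:72918481-72918520, plus strand): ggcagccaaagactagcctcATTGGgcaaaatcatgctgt
Ebp (chrX:8193543-8193587, minus strand): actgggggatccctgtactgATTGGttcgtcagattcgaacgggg
Sc5d (chr9:42264301-42264344, minus strand): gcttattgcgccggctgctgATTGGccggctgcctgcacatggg
Soat1 (chr1:156474334-156474378, minus strand): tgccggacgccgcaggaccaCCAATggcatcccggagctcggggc

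The core of the sterol regulatory element, searched as TCACNCCAC, was found in 1 of the 25 promoters, that of Hmgcs1, against 0.953% of tested genes. The Hmgcs1 promoter is shown whole, with this core and its 3 CCAAT boxes in capitals; the core ends 129 bases before the start.
Hmgcs1 (chr13:119690101-119690350, plus strand): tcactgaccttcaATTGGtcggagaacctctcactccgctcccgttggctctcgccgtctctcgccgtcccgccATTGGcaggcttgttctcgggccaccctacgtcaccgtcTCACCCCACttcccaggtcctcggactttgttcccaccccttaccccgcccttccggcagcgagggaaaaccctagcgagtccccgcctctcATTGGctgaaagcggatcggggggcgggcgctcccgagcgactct

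The DR4 repeat bound by LXR, searched as its consensus spelling on both strands, was in 0 of the 25 windows and in 0 of the promoters of tested genes. A match or its absence describes these letters in this window and says nothing of what bound there.

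The comparison asks whether myeloid loss of PD-1 went with a change in cholesterol genes of the fat pad. No member passed edgeR's quasi-likelihood test after Benjamini-Hochberg adjustment over all genes, in the full set (smallest adjusted p 0.560) or without control replicate 2 (0.540). The background was equally empty, with 0% of 15928 genes and 0% of 16729 genes called. A count of 0 does not show that no gene changed. In counts simulated with the spread estimated from all 6 libraries, edgeR called none of the changed genes at any fold used. Without control replicate 2 it called a minority of them. At an unadjusted p under 0.05 stood 2 of the 30 members, Soat1 and Insig2, against 8.65% of all genes, and without control replicate 2 only Soat1, against 8.96%. DESeq2, run as an alternative, called 1 member, Soat1, against 3.13% of the 16959 genes that had an adjusted p in the full set, where Tm7sf2 and Ebp had none. It again called Soat1 once control replicate 2 was left out, against 2.88% of 16759 genes. Of the 30 members 17 had a log2 fold change above 0, knockout over control, against 48.0% of all genes, and 21 without control replicate 2, against 47.1%. The medians were 0.22 and 0.29 for the members and −0.03 and −0.04 for all genes. The members' median was −0.04 without knockout replicate 1 and −0.09 without control replicate 1, so its sign rests on those libraries.

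**Figure D1:**
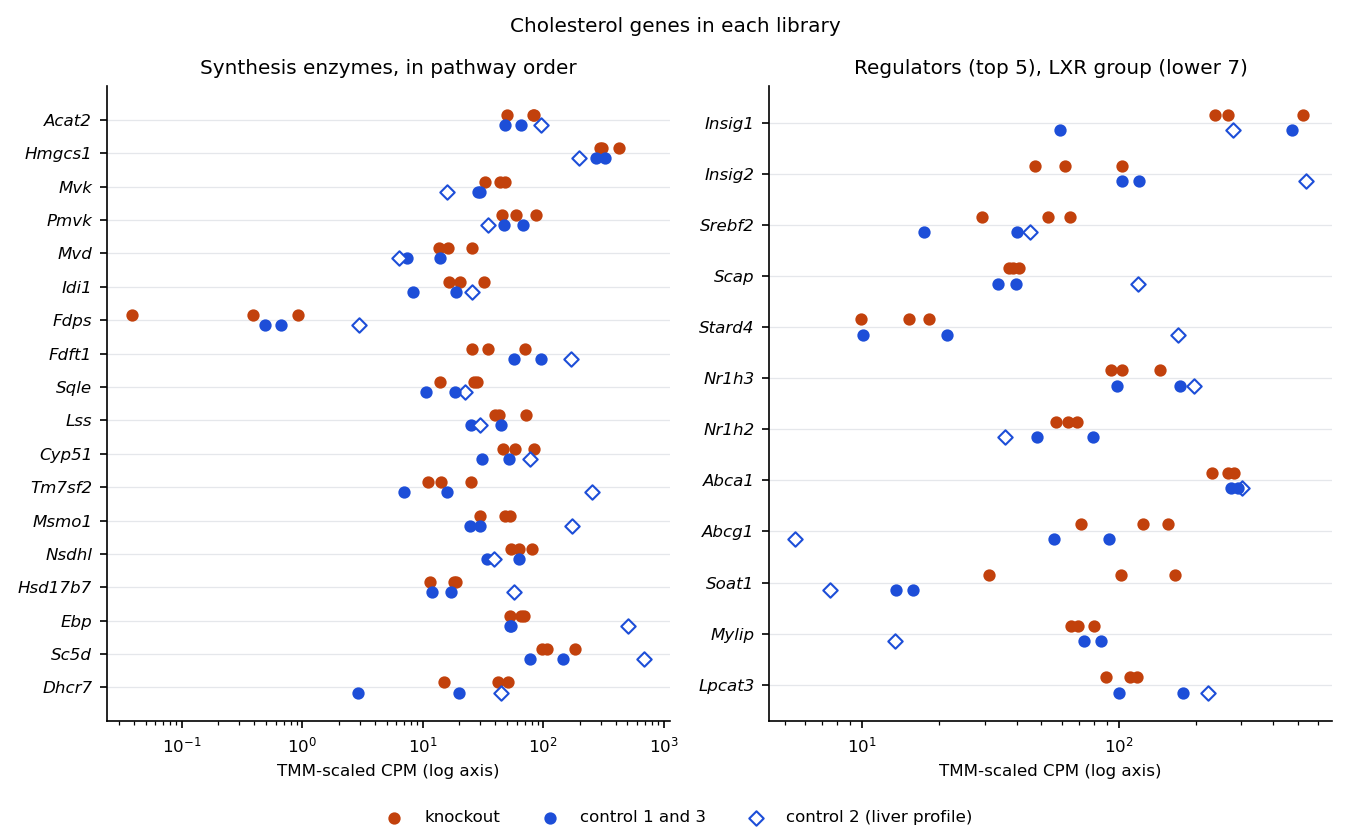
TMM-scaled CPM (log axis) of the 30 members in each library, with knockouts as orange points above controls in blue and control replicate 2 as an open diamond. Soat1 is separated between the groups, at 31.2 CPM or more in knockouts and 15.8 CPM or less in controls, while Tm7sf2, Ebp, Sc5d, Insig2 and Stard4 in control replicate 2 lie far to the right of the other libraries.

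The early enzymes, which turn acetyl-CoA into farnesyl diphosphate, lay above 0 in 6 of 7 cases, with a median log2 of 0.36 (0.35 without control replicate 2), and 0 passed the test. Mvk (ENSMUSG00000041939, chr5:114444269-114460591, plus strand, GRCm38), mevalonate kinase, had 47.9, 32.7 and 43.7 CPM in knockouts and 30.1, 15.9 and 28.5 CPM in controls. Each knockout lay above each control. Its log2 fold change was 0.74 ± 0.34 (SE, edgeR adjusted p 0.561) with all 6 libraries and 0.51 ± 0.24 without control replicate 2. Mvd, the decarboxylase that makes the isoprenoid unit, had 25.4, 16.3 and 13.6 CPM in knockouts and 7.42, 6.35 and 13.9 CPM in controls. Knockout replicate 3 overlapped with control replicate 3, and the difference was 1.00 ± 0.44 on the log2 scale (edgeR adjusted p 0.560), or 0.80 ± 0.41 without control replicate 2.

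Mvk and Soat1 were the 2 members in which the knockouts all lay above the controls, where 9.54% of all genes did so, and 13.4% without control replicate 2. In 0 members did the knockouts all lie below the controls, against 5.61% and 12.3% of genes. Hmgcs1, the cytosolic HMG-CoA synthase that commits carbon to the pathway, had 422, 294 and 308 CPM in knockouts and 274, 198 and 327 CPM in controls. The groups overlapped (log2 fold change 0.36 ± 0.39 SE, 0.19 ± 0.29 without control replicate 2). Idi1, which isomerises the isoprenoid unit, had 32.3, 20.2 and 16.6 CPM in knockouts and 8.35, 25.5 and 18.9 CPM in controls. Here too the ranges overlapped, with control replicate 1 lowest (0.39 ± 0.49 SE, 0.77 ± 0.46 without control replicate 2). Acat2, the cytosolic thiolase of the first step, and Pmvk, phosphomevalonate kinase, had means of 71.8 ± 18.8 and 63.9 ± 20.9 CPM (SD, n = 3) in knockouts and 69.4 ± 23.6 and 49.9 ± 16.4 CPM in controls. The log2 fold change of Acat2 was 0.05 ± 0.37 SE and 0.35 ± 0.30 without control replicate 2, and below 0 without knockout replicate 1, knockout replicate 3 or control replicate 1. That of Pmvk was 0.36 ± 0.38 SE and 0.16 ± 0.33 without control replicate 2.

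Fdps, farnesyl diphosphate synthase, could not be measured with certainty. It had 28, 11 and 1 counts in knockouts and 13, 33 and 18 counts in controls, at log2 fold changes of −1.56 ± 1.20 SE and −0.34 ± 1.15 without control replicate 2. Its annotated transcripts share 26.2% of their 50-base words with 8 other annotated genes of the GENCODE vM21 transcript set, and 1 of these, Gm3571, held 355, 184 and 158 counts in knockouts and 57, 339 and 138 counts in controls. The sources used here do not say how reads that fit several places were counted. Acat2 shares 39.1% of its words with Acat3 and Tcp1, and Idi1 25.3% with 5 Gm genes, so the counting of such reads bears on their values too. The 5 Gm genes together held 3, 3 and 11 counts in knockouts and 2, 25 and 13 counts in controls. Idi1 itself held 223 to 989 counts. Acat3 itself had 10, 61 and 15 counts in knockouts and 25, 2128 and 287 counts in controls.

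From squalene to lanosterol, 2 of 3 enzymes had a fold change above 0, at a median log2 of 0.41 (0.56 without control replicate 2), and 0 passed the test. Sqle, squalene epoxidase, a rate-limiting step of the later pathway, had 28.3, 26.4 and 13.9 CPM in knockouts and 10.7, 22.5 and 18.4 CPM in controls. Knockout replicates 1 and 2 were above every control and knockout replicate 3 among them (log2 fold change 0.41 ± 0.42 SE, 0.67 ± 0.42 without control replicate 2). Lss, lanosterol synthase, had 71.6, 42.5 and 40.1 CPM in knockouts and 25.3, 30 and 44.8 CPM in controls (0.62 ± 0.37 SE, 0.56 ± 0.38 without control replicate 2). Fdft1, squalene synthase, had 34.6, 25.7 and 70.4 CPM in knockouts and 96.5, 169.6 and 57.0 CPM in controls. Its log2 fold change was −1.31 ± 0.56 (SE, edgeR adjusted p 0.560) and −0.82 ± 0.48 without control replicate 2, the lowest of the enzymes in that fit. Fdft1 transcripts share 26.5% of their 50-base words with the cathepsin gene Ctsb and with Gm6781. The counting of reads that fit several places therefore bears on the values of Fdft1 too. Gm6781 held 1, 2 and 0 counts in knockouts and 2, 0 and 2 counts in controls, and the counts of Ctsb were not examined.

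The 8 enzymes that turn lanosterol into cholesterol had a median on opposite sides of 0 with and without control replicate 2. In the full set 3 of 8 were above 0 (median log2 −0.81). Without that library 8 of 8 were above 0, at a median of 0.49, and 0 of 8 passed the test in either fit. Dhcr7 (ENSMUSG00000058454, chr7:143823145-143848410, plus strand), the reductase of the last step, had 50.5, 41.9 and 15.0 CPM in knockouts and 2.92, 44.9 and 19.8 CPM in controls. Control replicate 1 stood 17.3-fold below knockout replicate 1, while knockout replicate 3 lay below control replicate 3. Its log2 fold change was 0.67 ± 0.93 (SE) and 1.68 ± 0.89 without control replicate 2 (edgeR adjusted p 0.874 and 0.613), the largest of the enzymes without that library.

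Cyp51, the lanosterol demethylase, had 83.6, 57.9 and 46.2 CPM in knockouts and 31.1, 77.9 and 51.5 CPM in controls (0.23 ± 0.43 SE, 0.61 ± 0.36 without control replicate 2). Its sign turned without knockout replicate 1 (−0.03) or control replicate 1 (−0.04). Nsdhl, a sterol dehydrogenase encoded on the X chromosome, had 80.4, 54.0 and 62.6 CPM in knockouts and 34.3, 38.8 and 63.4 CPM in controls (0.53 ± 0.34 SE, 0.44 ± 0.34 without control replicate 2). These ranges overlapped through control replicate 3. Msmo1, the methylsterol oxidase, had 52.6, 48.3 and 29.8 CPM in knockouts and 24.4, 173 and 29.9 CPM in controls, with a log2 fold change of −0.80 ± 0.80 SE that became 0.70 ± 0.32 without control replicate 2.

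**Figure D2:**
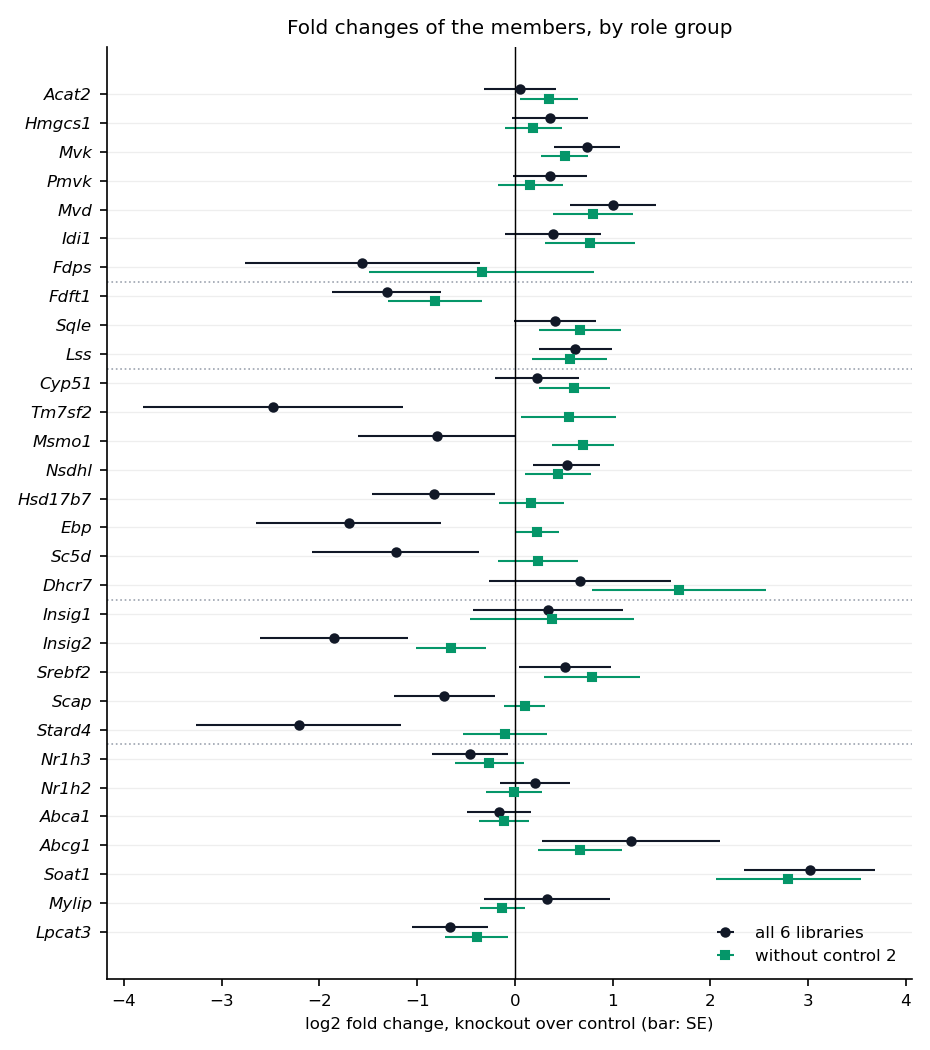
Log2 fold change (knockout over control, bars are SE) of each member with all 6 libraries (black circles) and without control replicate 2 (green squares), with dotted lines between the role groups. Tm7sf2, Msmo1, Hsd17b7, Ebp, Sc5d, Scap, Nr1h2 and Mylip stood on the other side of 0 without that library, and Soat1 stood at 3.02 and 2.80.

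The liver-profile library, a single library with no replicate of its kind, did not stand to one side of the others throughout the pathway. It lay above all 5 other libraries for 14 members and below all 5 for 8, against 31.2% and 41.1% of all genes, and within their range for the other members. Tm7sf2, a sterol reductase, had 254 CPM in control replicate 2, against 14.1, 11.0 and 25.0 CPM in knockouts and 7 and 15.9 CPM in control replicates 1 and 3. This was 18 times the median of the 5 other libraries, and the log2 fold change between the groups was −2.47 ± 1.33 SE, or 0.55 ± 0.49 without it. Ebp, the sterol isomerase, had 502 CPM there, against 52.6 to 69.2 CPM in the 5 others (9.31 times their median), and Sc5d, the sterol desaturase, had 688 CPM, against 77.2 to 185 CPM. Hsd17b7, the sterol ketoreductase, had 57.2 CPM there, against 11.5 to 18.7 CPM in the others. The log2 fold changes with and without that library were −1.70 ± 0.95 and 0.23 ± 0.22 SE for Ebp, −1.22 ± 0.85 and 0.24 ± 0.41 SE for Sc5d, and −0.83 ± 0.63 and 0.17 ± 0.33 SE for Hsd17b7. Cyp51, Nsdhl and Dhcr7 of the same stretch lay within the range of the others. Of the 7 early enzymes, Acat2 (95 CPM) and Fdps (2.95 CPM) were also above all 5 others and Idi1 was among them, while Mvk (15.9 CPM), Pmvk (34.8), Mvd (6.35) and Hmgcs1 (198) were lower in control replicate 2 than in each of the 5 others.

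Among the 5 libraries left, the enzymes differed between single libraries as much as between the groups. Knockout replicate 1 was highest of the 5 for 13 of 18 enzymes, against 11.4% of all genes, and control replicate 1 was lowest for 12 of 18, against 29.6%. Knockout replicate 1 exceeded control replicate 1 for 17 of 18 enzymes, with a median log2 ratio of 1.06. Within the controls, replicate 3 exceeded replicate 1 for 16 of 18 (median 0.62), and within the knockouts, replicate 1 exceeded replicate 3 for 14 of 18 (0.74). Knockout replicate 3 exceeded control replicate 3 for 6 of 18 (−0.06). The enzymes as a whole had 16 of 18 fold changes above 0 without control replicate 2, with a median of 0.47. The exceptions were Fdps and Fdft1. With all 6 libraries 11 of 18 were above 0 (median 0.29), and the median was 0.02 without knockout replicate 1 and 0.0076 without control replicate 1. These counts describe enzymes that share libraries and are no measure of independent events.

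**Figure D3:**
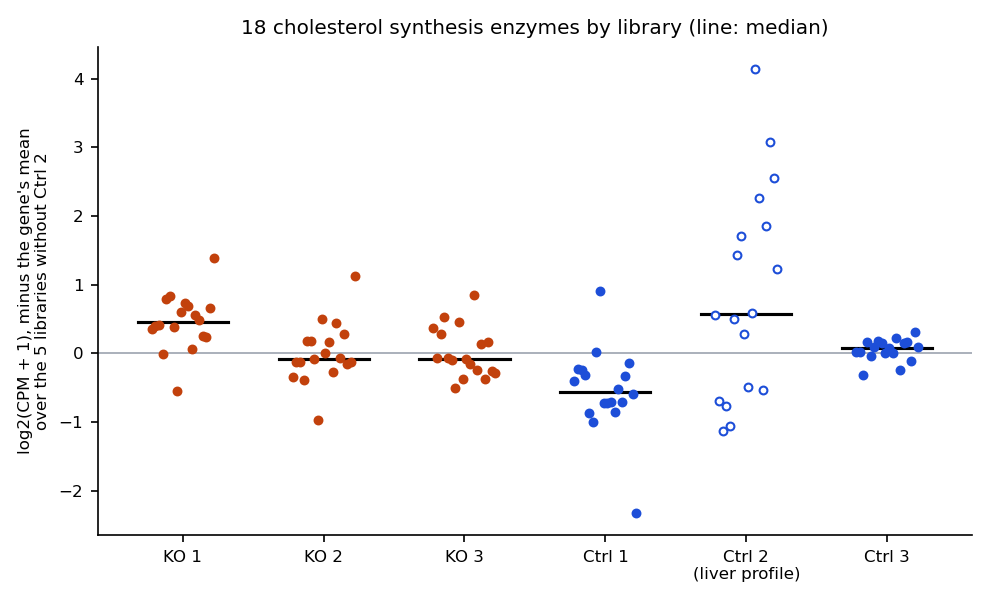
Each point is 1 of the 18 synthesis enzymes in 1 library, as log2(CPM + 1) minus that enzyme's mean over the 5 libraries other than control replicate 2, and the black line is the median. The medians are 0.45, −0.08 and −0.07 in knockouts and −0.56, 0.58 and 0.08 in controls, so that knockout replicate 1 and control replicate 1 stand furthest apart among the 5.

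Of the marker lists, the adipocyte markers summed to 22245 CPM in knockout replicate 1 and 65480.0 CPM in control replicate 1, the highest of the 5. The lowest of the 5 was 16186 CPM, in knockout replicate 2. Fabp4 alone held 8515 CPM in knockout replicate 1 and 36418 CPM in control replicate 1. The mean log2(CPM + 1) of the 12 adipocyte markers was 10.17 and 11.38 in these 2 libraries. Fibroblast markers summed to 2805, 7043 and 1582 CPM in knockouts and 892, 331 and 1649.9 CPM in controls, highest in knockout replicate 2. All 6 had a log2 fold change above 0, against 48.0% of all genes. In 4 of them every knockout lay above every control, against 9.54% of all genes. Of 5 markers of steroid-producing gonadal cells, which use cholesterol as substrate, Hsd3b1 was at 0 in all 6 libraries. The list summed to 2.41 to 4.91 CPM in knockouts and 3.86, 93.6 and 6.53 CPM in controls. In control replicate 2, Cyp17a1 alone held 89.9 CPM, and Cyp11a1 and Insl3 were also at 0. The part of these cells in the enzyme levels was not tested.

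Of the 5 genes of the SREBP2 group 2 were above 0 (median log2 −0.72), or 3 without control replicate 2 (median 0.10), and 0 passed the test. Srebf2, which encodes SREBP2, had 52.9, 64.8 and 29.2 CPM in knockouts and 17.5, 45.3 and 40.1 CPM in controls. Knockout replicates 1 and 2 were above every control and knockout replicate 3 below control replicates 2 and 3. The log2 fold change was 0.51 ± 0.47 (SE, edgeR adjusted p 0.780), and 0.79 ± 0.49 without control replicate 2. Scap, the escort protein, varied little outside control replicate 2, at 38.7, 40.9 and 37.4 CPM in knockouts and 33.8 and 39.8 CPM in control replicates 1 and 3, with 119 CPM in control replicate 2. Its log2 fold change was −0.72 ± 0.52 SE and became 0.10 ± 0.21 without that library.

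The INSIG genes differed in which libraries were high. Insig1 (ENSMUSG00000045294, chr5:28071363-28078662, plus strand), itself switched on by SREBP2, had 523, 266 and 237 CPM in knockouts and 58.9, 278 and 473 CPM in controls. Control replicates 1 and 3 differed by 8.03-fold, more than any knockout differed from control replicate 3. Its log2 fold change of 0.34 ± 0.77 SE (0.38 ± 0.84 without control replicate 2) turned to −0.09 without knockout replicate 1 and −0.13 without control replicate 1. Insig2 (ENSMUSG00000003721, chr1:121304353-121332589, minus strand), the form that SREBP2 does not drive, had 61.5, 47.2 and 103 CPM in knockouts and 103, 539 and 119.6 CPM in controls. Knockout replicate 3 was level with control replicate 1, and knockout replicates 1 and 2 lay below every control. The log2 fold change was −1.85 ± 0.76 (SE, edgeR adjusted p 0.560), and −0.65 ± 0.36 without control replicate 2 (edgeR adjusted p 0.626). Stard4, a sterol carrier of the cytosol, had 15.3, 18.3 and 9.86 CPM in knockouts and 10.1, 170.0 and 21.5 CPM in controls, with log2 fold changes of −2.21 ± 1.05 SE and −0.10 ± 0.43 without control replicate 2.

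**Figure D4:**
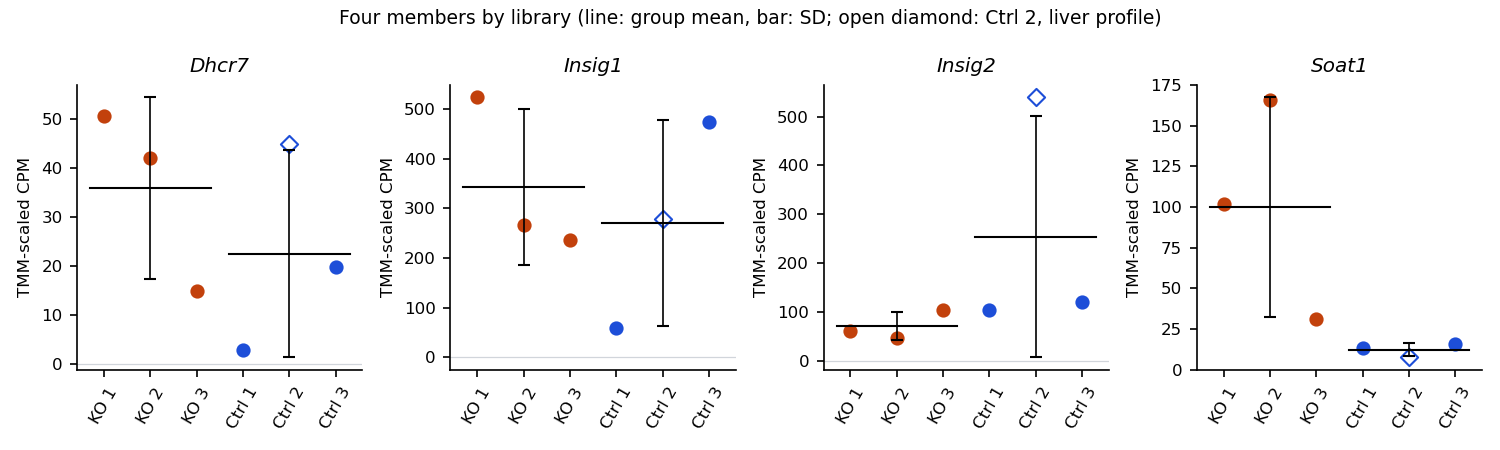
TMM-scaled CPM of Dhcr7, Insig1, Insig2 and Soat1 in each library, with the group mean (line) and SD (bar, n = 3) and control replicate 2 as an open diamond. Insig1 ranges from 58.9 to 473 CPM within the controls alone, and of these 4 genes only Soat1 has every knockout above every control.

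Soat1 (ENSMUSG00000026600, chr1:156424525-156474331, minus strand, GRCm38), which esterifies cholesterol for storage and is the main such enzyme of macrophages, had the largest fold change of the 30. It had 102, 166 and 31.2 CPM in knockouts and 13.5, 7.51 and 15.8 CPM in controls, and each knockout lay above each control. The means were 99.9 ± 67.4 CPM in knockouts and 12.3 ± 4.27 CPM in controls (SD, n = 3). The log2 fold change was 3.02 ± 0.67 (SE, edgeR unadjusted p 0.00364, adjusted p 0.560), and 2.80 ± 0.74 without control replicate 2 (adjusted p 0.540). DESeq2 gave an adjusted p of 0.00448 with all 6 libraries and 0.00287 without control replicate 2. Macrophage markers stood in the same order among the knockouts, replicates 2, 1 and 3, at 6945, 5569 and 1586 CPM, and so did fibroblast markers, at 7043, 2805 and 1582 CPM. In control replicates 1, 2 and 3 macrophage markers summed to 1311, 648 and 1083 CPM and fibroblast markers to 892, 331 and 1649.9 CPM. Only the fibroblast sums followed the Soat1 order there. The median log2 fold change was 2.32 for the 15 macrophage markers and 2.29 for the 6 fibroblast markers, with 0 called in either list. Without control replicate 2 these medians were 2.02 and 1.94. The part of these cells in the Soat1 difference was not tested.

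The exporters did not share this separation. Abcg1, which loads cholesterol onto high-density lipoprotein, had 124, 155 and 71.6 CPM in knockouts and 91.5, 5.46 and 56.2 CPM in controls. Knockout replicates 1 and 2 were above every control, and control replicate 2 stood at 0.0596 times the median of the 5 others. The log2 fold change was 1.19 ± 0.91 SE and 0.67 ± 0.43 without control replicate 2 (edgeR adjusted p 0.720 and 0.665). Abca1, the exporter to lipid-poor apolipoprotein, had 266, 282 and 230.1 CPM in knockouts and 273, 303 and 290.5 CPM in controls (−0.16 ± 0.33 SE, −0.11 ± 0.26 without control replicate 2, 0.27 under total-count scaling), a spread of 1.26-fold over the 5 libraries without control replicate 2.

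Of the receptors, Nr1h3 (LXRα) had 103, 93.0 and 145 CPM in knockouts and 174, 197 and 98.8 CPM in controls. The groups overlapped, at a log2 fold change of −0.46 ± 0.39 SE (−0.26 ± 0.35 without control replicate 2) that stood at 0.01 under total-count scaling. Nr1h2 (LXRβ) had 57.1, 63.7 and 69.0 CPM in knockouts and 79.7, 36.0 and 48.1 CPM in controls (0.21 ± 0.36 SE, −0.0078 without control replicate 2). Mylip, an LXR-induced ubiquitin ligase that degrades lipoprotein receptors, had 69.5, 65.2 and 80.4 CPM in knockouts and 85.0, 13.4 and 73.0 CPM in controls (0.33 ± 0.64 SE, −0.13 without control replicate 2). Lpcat3, an LXR-induced enzyme that builds polyunsaturated phospholipid, had 111, 89.1 and 118 CPM in knockouts and 178, 223 and 100.1 CPM in controls (−0.66 ± 0.39 SE, −0.39 ± 0.32 without control replicate 2). The median of the 7 was 0.21 on the log2 scale, and −0.11 without control replicate 2, where 2 of 7 were above 0.

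Levels of different genes can be set side by side only per length, and for this the authors' deposited FPKM were ordered within each library. Insig1 was first of the 30 in all 3 knockouts (151, 78.8 and 67.0 FPKM) and in control replicate 3 (137 FPKM), but 13th in control replicate 1 (16.5 FPKM). Hmgcs1 was second in each of the 5 libraries without control replicate 2, at 81.8, 58.6 and 58.6 FPKM in knockouts and 51.7 and 63.8 FPKM in those controls. Soat1 was 18th, 14th and 25th in knockouts and 27th, 29th and 29th in controls. In control replicate 2 the first place went to Ebp (204 FPKM) and the next to Insig2 (145 FPKM). Fdps was last in all 6 libraries.

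A wider list of 42 sterol genes beyond the members, of which 41 were in the count table and 40 were tested, had 0 genes past the edgeR test in either direction, a median log2 value of −0.29, and 13 of 40 above 0. Without control replicate 2 the median was −0.04, with 19 above 0. Of the 4 genes of smallest p with a mean log CPM of at least 1, Pltp, the phospholipid transfer protein gene, an LXR target, had 458, 619 and 192 CPM in knockouts and 95.1, 63.5 and 177 CPM in controls. Each knockout lay above each control (1.92 ± 0.62 SE, edgeR adjusted p 0.560, and 1.66 ± 0.60 without control replicate 2). The 3 others were highest in control replicate 2. Soat2, the esterification enzyme of liver and intestine, had 0.163, 0.982 and 0.0776 CPM in knockouts and 1.16, 46.1 and 1.61 CPM in controls. Cyp7b1, an oxysterol hydroxylase, had 1.37, 3.02 and 1.86 CPM in knockouts and 0.337, 399 and 10.4 CPM in controls. Lcat, the plasma enzyme that esterifies cholesterol, had 0.360, 4.17 and 1.13 CPM in knockouts and 0.112, 511 and 23.7 CPM in controls. In these 3 genes control replicate 3 was next, the library with the second highest Alb. Nceh1, which hydrolyses the cholesterol esters that Soat1 makes, was singled out after its values were seen, as the 1 gene of the wider list that DESeq2 called without control replicate 2. It had 138, 197 and 24.9 CPM in knockouts and 13.4, 80.7 and 15.5 CPM in controls. The knockouts lay above control replicates 1 and 3 and overlapped with control replicate 2. Without that library the log2 fold change was 3.07 ± 0.73 (SE, DESeq2 adjusted p 0.00421) or 3.08 ± 0.89 (SE, edgeR adjusted p 0.540), and 1.72 ± 0.99 with all 6 (edgeR adjusted p 0.630). The order of the knockouts was that of Soat1 and of the macrophage and fibroblast markers, whose part in it was not tested.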

How the data were processed

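RNA was sequenced from epididymal fat in 6 libraries, 3 knockout and 3 control. Per the submitters' processing notes, the tools were featureCounts 1.5.0-p3, StringTie 1.3.3b, HISAT2 2.0.5 and fastp, on build mm10. Not given in the sources used here are the strand setting, the annotation and the handling of reads that fit several places. The authors deposited raw counts per gene, used for every test, and FPKM values, used only to order genes within a library. The labels give groups by genotype and no replicate numbers.

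Symbols were matched for 54409 of 54532 identifiers. The test was the robust quasi-likelihood test of edgeR 4.0.16, run in R 4.3.3, with TMM scaling (factor 0.5591 for control replicate 2, 0.9823 to 1.252 for the others), filterByExpr by group and Benjamini-Hochberg adjustment at 0.05 over all genes. Each SE is the log2 fold change divided by the square root of its F value. No exact permutation test was used, since its smallest two-sided p for 3 against 3 is 0.1. The edgeR fit was tested on simulated data with 200 changed genes: at a small preset spread it called most of them, at the spread estimated from all 6 libraries none, and without control replicate 2 a minority. Alternatives were DESeq2 1.42.0, other scalings, no filter and libraries left out. Figures were drawn with matplotlib 3.10.9. The members and lists were chosen with earlier results of these data known. All members are named, and of the wider list the 4 of smallest p with mean log CPM of at least 1. Promoters are from RefSeq, 1 window per gene.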

Additional observations from a re-analysis of the deposited data

How the results depend on the processing

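No paired analysis was possible because the labels give no replicate numbers that groups share. The numbers in the library titles are adjacent for knockout replicate 3 and control replicate 3. Those of knockout replicates 1 and 2 lie close together, with no control near them. What these numbers stand for is not stated, and genotype and title number cannot be told apart for those 2 libraries. Leaving out 1 library at a time, edgeR called 0 genes each time, 0 members and 0 of the wider list. DESeq2 called 530 genes, 482 without control replicate 2 (added after the data were seen), with 1 member (Soat1, log2 fold change 3.03 and 2.79) and 1 gene of the wider list in each; the cause was not tested. That wider-list gene was Lcat with all 6 libraries (−6.58) and Nceh1 without control replicate 2 (3.07). Total-count scaling moved all genes by a median of 0.38 on the log2 scale, the early enzymes to a median of 0.69, the squalene steps to 0.90, and Msmo1, Abca1 and Nr1h3 to 0.01, 0.27 and 0.01. Without control replicates 2 and 3 together, which leaves 1 control assumed to vary like the knockouts, the medians were 1.04 for the squalene steps, 0.90 for lanosterol to cholesterol, 0.54 for the SREBP2 group (−0.72 with all 6), −0.23 for the LXR group (0.21 with all 6) and 0.28 for the wider list (−0.29 with all 6). In that setting Tm7sf2 stood at 1.27, Msmo1 0.85, Hsd17b7 0.45, Ebp 0.25, Sc5d 0.77, Scap 0.22, Stard4 0.54, Nr1h2 −0.32, Mylip −0.23, Cyp7b1 2.63 and Lcat 4.03, each on the other side of 0 from the fit with all 6. DESeq2 without control replicate 2 gave a median of 0.49 for lanosterol to cholesterol, and 0.55 for Tm7sf2, 0.70 for Msmo1, 0.17 for Hsd17b7, 0.23 for Ebp, 0.24 for Sc5d, 0.10 for Scap, −0.0019 for Nr1h2 and −0.13 for Mylip. With 1 library left out, the lanosterol to cholesterol median ranged from −1.20 to 0.49, and log2 fold changes ranged from −0.04 to 0.61 for Cyp51, −3.01 to 0.55 for Tm7sf2, −1.21 to 0.70 for Msmo1, −1.20 to 0.17 for Hsd17b7, −2.15 to 0.23 for Ebp, −1.67 to 0.24 for Sc5d, −0.15 to 0.35 for Acat2, −0.13 to 1.02 for Insig1, −1.02 to 0.10 for Scap, −0.0078 to 0.59 for Nr1h2 and −0.13 to 0.73 for Mylip. The sign of 16 of the 30 members held in all 12 alternatives, among them Soat1 at 2.46 to 3.46 with 1 library left out. RLE size factors and no filter turned 0 members. Pdcd1 had 0 to 19 counts and Fdps 1 to 33 counts per library, which limits the precision of both.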
